A study of Mus musculus with 4 samples.

Results

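Among 12548 CD45-high spleen cells of aged and young mice (CD45 is the common leukocyte antigen), 147 held at least 1 UMI each of Tbc1d4 and Il1r2 with Cd3d, Cd3e and Cd3g all at 0. The cells were chosen by these counts, so the counts themselves are a description. A UMI is 1 counted RNA molecule, and the Cd3 genes encode chains of the T cell receptor complex. The aged spleen held 141 of these cells among 5647, and the young spleen held 6 among 6901. Cells were barcodes with at least 500 UMIs, at least 250 genes and at most 10% mitochondrial UMIs. Each group was 1 library of 10x Chromium 3′ version 2 chemistry, so there is no test between groups, and all intervals are exact 95% intervals that cover counting error only. The study also has 1 library each of aged and young brain, for 35204 cells in all under the same filter, and these were used here only to find shared barcodes. The labels give no age in numbers, strain or number of animals, and a treatment with tamoxifen that precedes a search for tdTomato-positive NK cells is given for all 4 libraries alike. They also call the cells of every library neuroblasts. Ptprc, which encodes CD45, was found in 136 of the 141 aged spleen cells at 943 CPM (the gene's share of the group's summed UMIs, times 1e+06), and the neuroblast genes Dcx, Sox11 and Stmn2 had no UMI in them.

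Tbc1d4 encodes AS160, a GTPase-activating protein for Rab proteins that Akt phosphorylates and that is best known for holding back glucose transporter vesicles in muscle and fat. Il1r2 encodes a decoy receptor that binds interleukin 1 without passing on a signal. Ptgs2 encodes cyclooxygenase 2, the inducible enzyme of prostaglandin synthesis, and Atf3 encodes a stress-induced transcription factor. Dendritic cells take up antigen and show it to T cells on MHC class II. They are known for the growth factor receptor Flt3, the integrin Itgax (CD11c) and the transcription factor Zbtb46, and their conventional kinds are set apart by genes such as Xcr1 and Clec9a for type 1 and Sirpa and Cd209a for type 2.

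The promoters of the 4 genes that mark these cells are shown because the rule required Tbc1d4 and Il1r2, and Ptgs2 and Atf3 were high in the same cells. Each runs from 250 bases before to 50 bases after the RefSeq start site in GRCm38.p6. Tbc1d4 (ENSMUSG00000033083) lies on chromosome 14 at 101442360 to 101609191, minus strand, in the GENCODE M21 annotation of GRCm38. Il1r2 (ENSMUSG00000026073) lies on chromosome 1 at 40074079 to 40125231, plus strand. Ptgs2 (ENSMUSG00000032487) lies on chromosome 1 at 150100031 to 150108227, plus strand. Atf3 (ENSMUSG00000026628) lies on chromosome 1 at 191170296 to 191218039, minus strand. The Il1r2 and Atf3 windows lie inside the gene spans given here, at RefSeq start sites that differ from the outer ends of those spans. Capitals mark CACGTG, the E-box of USF factors.
Tbc1d4, chr14:101609142-101609441, minus strand: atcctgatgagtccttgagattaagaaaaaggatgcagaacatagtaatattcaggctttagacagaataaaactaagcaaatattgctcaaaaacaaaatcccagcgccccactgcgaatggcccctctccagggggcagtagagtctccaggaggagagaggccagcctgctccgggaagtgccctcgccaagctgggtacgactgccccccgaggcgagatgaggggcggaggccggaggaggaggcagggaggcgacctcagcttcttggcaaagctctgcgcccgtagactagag
Il1r2, chr1:40085843-40086142, plus strand: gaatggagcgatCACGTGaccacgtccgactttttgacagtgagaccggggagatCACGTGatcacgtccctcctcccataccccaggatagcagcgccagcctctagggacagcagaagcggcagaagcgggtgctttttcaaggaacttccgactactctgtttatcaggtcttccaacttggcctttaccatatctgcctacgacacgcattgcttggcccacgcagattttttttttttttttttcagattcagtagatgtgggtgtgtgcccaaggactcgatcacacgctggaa
Ptgs2, chr1:150099781-150100080, plus strand: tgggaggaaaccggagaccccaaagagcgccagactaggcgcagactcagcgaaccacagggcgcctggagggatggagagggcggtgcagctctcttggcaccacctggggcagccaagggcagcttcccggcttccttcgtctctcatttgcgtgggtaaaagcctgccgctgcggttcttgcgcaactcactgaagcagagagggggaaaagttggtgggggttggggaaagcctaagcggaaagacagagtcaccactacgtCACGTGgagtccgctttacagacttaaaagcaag
Atf3, chr1:191183284-191183583, minus strand: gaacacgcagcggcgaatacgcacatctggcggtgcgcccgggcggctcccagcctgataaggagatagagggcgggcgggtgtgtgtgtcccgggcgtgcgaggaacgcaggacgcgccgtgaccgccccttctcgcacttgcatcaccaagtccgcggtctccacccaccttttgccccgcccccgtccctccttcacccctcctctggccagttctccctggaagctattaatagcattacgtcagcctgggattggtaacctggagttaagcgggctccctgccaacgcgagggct

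The E-box stood in the Il1r2 window with its first base at -238 and -195 from the start site, and in the Ptgs2 window at 16. Of 32851 mouse promoters of this length, 7.15% hold it. On either strand, none of the 4 windows held TGACGTCA (the cAMP response element), TGANTCA (AP-1), GAGGAAGT (PU.1), TATAAA (the TATA box) or the NF-kB motif. Of all promoters 1.79%, 7.81%, 3.20%, 13.6% and 0.411% hold these, in the same order. These motifs do not overlap each other in the windows. A match is a description of letters, and no match says only that these letters are not in this window.

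The spleen libraries held 40628623 UMIs (aged) and 39866955 UMIs (young) over all barcodes. The 141 aged spleen cells had a median of 3382 UMIs (range 1189 to 34308) and 1141 genes, against 4617 UMIs and 1712.5 genes in the other aged spleen cells. The 6 young spleen cells had a median of 1290 UMIs, against 4094 UMIs in the other young spleen cells. In sum, 772839 UMIs stand behind the aged spleen cells that met the rule and 15571 UMIs behind the young ones, so the young values are much less precise.

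Barcodes were shared between libraries far beyond the number that random draws from the barcode list would give. Of the 141 aged spleen cells, 137 (97.2%) had a barcode that also held at least 500 UMIs in the young brain library, as did 4781 of the 5506 other aged spleen cells (86.8%), where 8.66 shared barcodes would arise by chance. All 137 held more UMIs in the aged spleen library. At these 137 barcodes the aged spleen library held 2869 Tbc1d4 UMIs and the young brain library 1107, 38.6% as many, while over all genes it held 25.1% as many. Their median mitochondrial share was 7.61% in the aged spleen library and 2.83% in the young brain library. Shared barcodes were deeper: their aged spleen cells had a median of 4932.5 UMIs, and the 729 aged spleen cells at barcodes not shared with the young brain had a median of 1040 UMIs. Among those 729 cells, 4 met the rule (0.549%), with 4, 1, 12 and 1 Tbc1d4 UMIs and 1, 1, 3 and 1 Il1r2 UMIs. Of the 141 cells 1 also had a barcode of the young spleen, where it held more UMIs (5431) and did not meet the rule. It is counted here as aged. None of the 6 young spleen cells had a barcode found in another library. Cells were kept in the library they were read in, and which library such a cell came from was not tested. Values without shared barcodes were computed for shares, counts of genes, the leading genes named by rule and the dendritic gate. They stand beside the result or in the closing section. For genes in the dendritic gate they cover only Tbc1d4, Ptgs2 and Atf3. None were computed for the other genes given below, so those levels were not checked against barcode sharing. These include most lineage genes, the MHC class II, costimulatory and NF-kB genes, Nlrp3, Alox5ap, Tnf and Cxcl2. Pmaip1 in the aged spleen and the immediate early genes other than Atf3 are among them too.

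The mitochondrial limit removed more barcodes with this gene pattern than others. Without the limit 348 aged spleen barcodes met the gene rule, with a median mitochondrial share of 11.3%, against 5.61% in the other aged spleen barcodes. The limit kept 40.5% of the 348 and 89.9% of the others. In the young spleen it kept 6 of 10, against 91.0% of the others. Among the cells kept, the median share was 7.39% in the 141 aged spleen cells and 5.35% in the other aged spleen cells. At limits of 5%, 10%, 15% and 20% the cells that met the rule numbered 27, 141, 275 and 333 in the aged spleen and 1, 6, 8 and 10 in the young spleen. The nuclear RNAs Malat1 and Neat1 stood at 45211 and 969 CPM in the 141 cells, against 22745 and 240 CPM in the other aged spleen cells. Mitochondrial share and nuclear RNA thus moved with the gene differences given below, and their part in them was not tested.

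**Figure D1:**
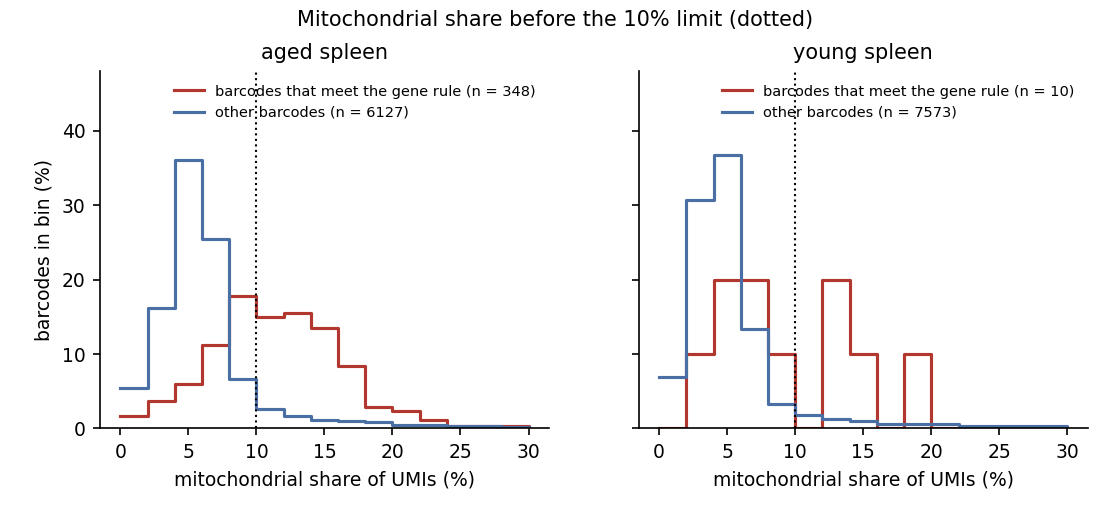
Share of barcodes (%, y axis) by mitochondrial share of UMIs (%, x axis, bins of 2) before the limit, for barcodes that met the gene rule (red) and other barcodes (blue), in aged spleen (left) and young spleen (right). In aged spleen the red line peaks next to the dotted limit at 10% and runs on well beyond it, with 348 barcodes in all, while most of the blue line lies below the limit.

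By the rule itself, cells with both genes and no Cd3 made up 2.50% of aged spleen cells (2.11% to 2.94%) and 0.0869% of young spleen cells (0.0319% to 0.189%), a ratio of 28.7 (12.9 to 79.6). Without barcodes that hold 500 UMIs in another library the shares were 0.551% and 0.0875%, a ratio of 6.29 (1.31 to 26.5). The pattern was chosen with these counts known, so the ratio is a description. Tbc1d4 had a lowest, median and highest count of 1, 17 and 175 UMIs among the 141 aged spleen cells, and Il1r2 of 1, 3 and 23 UMIs. Il1r2 lay at exactly 1 UMI in 41 of them, Tbc1d4 in 12 and both in 8, while both genes had 2 or more UMIs in 96. Just outside the rule, 304 aged spleen cells held Tbc1d4 and no Il1r2, against 169 young spleen cells. Il1r2 without Tbc1d4 was seen in 114 aged and 30 young spleen cells, and both genes with a Cd3 UMI in 49 aged and 4 young spleen cells. B cells, which should lack both genes, show the background: Tbc1d4 had a UMI in 5.23% and Il1r2 in 3.23% of 1951 aged spleen cells gated by 3 or more B cell genes, at a median of 4157 UMIs. With NK cell genes allowed, Tbc1d4 had a UMI in 5.56% of aged and 1.60% of young B-gated cells, and Il1r2 in 3.37% and 0.329%. Over all spleen cells the shares were 19.7% aged and 7.75% young for Tbc1d4, and 5.77% and 0.725% for Il1r2. The higher aged share of each gene was therefore not particular to the cells that met the rule.

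Ptgs2 had 0, 1 and 40 UMIs as its lowest, median and highest count among the 141 aged spleen cells and was seen in 88 of them (62.4%), against 1.08% of the B-gated cells. Atf3 had 0, 4 and 50 UMIs and was seen in 123 of the 141 (87.2%), against 17.9% of the B-gated cells. The spread among the cells was therefore wide in all 4 marker genes, with Il1r2 and Ptgs2 close to the limit of detection in many.

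**Figure D2:**
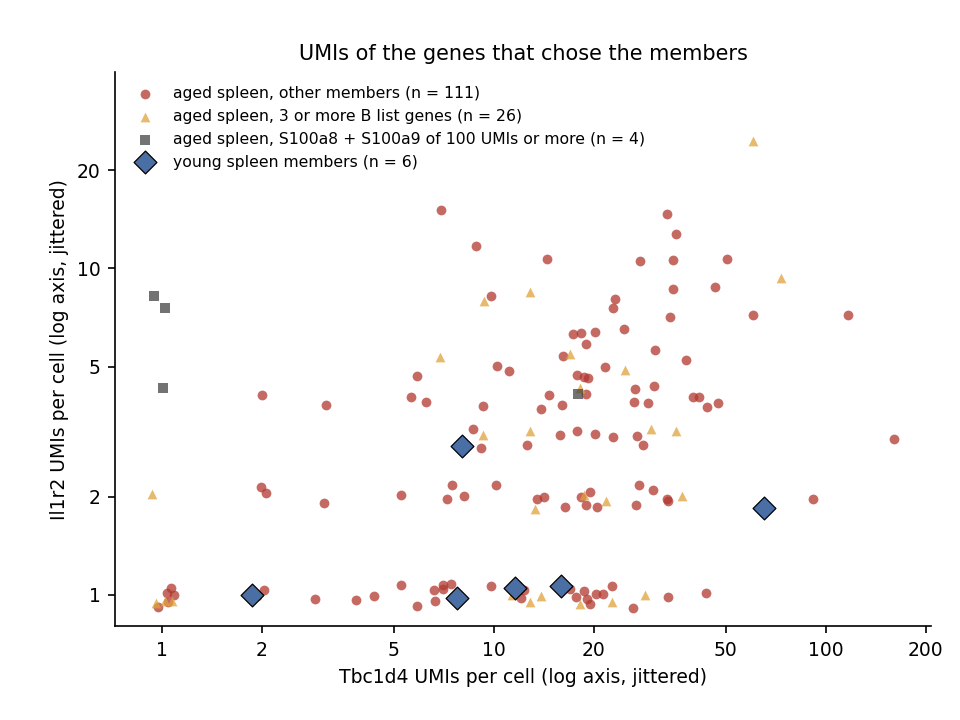
Il1r2 UMIs (y axis) against Tbc1d4 UMIs (x axis) per cell, both on log axes with a small jitter, for the 141 aged spleen cells (red circles, orange triangles with 3 or more B cell genes, grey squares with 100 or more S100a8 and S100a9 UMIs) and the 6 young spleen cells (blue diamonds). Most cells lie well above 1 UMI of Tbc1d4 with few UMIs of Il1r2, and 3 of the 4 grey squares lie at 1 UMI of Tbc1d4.

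By the shared list of lineage genes, these cells were nearest to dendritic cells. At least 2 of the 7 measured genes of the list shared by dendritic cells were found in 108 of the 141 aged spleen cells (76.6%), against 25.6% of the other aged spleen cells, although the other cells had more UMIs. Itgax, the integrin CD11c, stood at 239 CPM (206 to 276) in the 141 cells and 30.2 CPM in the others and was found in 61.7% of the 141 cells. Flt3, the receptor that dendritic cells depend on, stood at 137 CPM (112 to 166) against 8.50 CPM in the others. Ffar2, a receptor for short-chain fatty acids, stood at 119 CPM against 7.25 CPM. Zbtb46 stood at 38.8 CPM against 3.05 CPM, and Kmo, an enzyme of tryptophan breakdown, at 67.3 CPM against 13.8 CPM. Cst3, the protease inhibitor cystatin C, stood at 597 CPM against 179 CPM, but its median was 0 UMIs and 1 cell held 152 of its 461 UMIs. H2-DMb2, the last gene of the list, was at 1.67-fold (1.42 to 1.95) and did not pass 2-fold.

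Receptors known from myeloid cells were higher as well. Sirpa, an inhibitory receptor of type 2 conventional dendritic cells and macrophages, stood at 148 CPM in the 141 cells and 12.9 CPM in the other aged spleen cells. Csf2ra and Csf2rb, the chains of the GM-CSF receptor, were 7.91-fold (6.46 to 9.63) and 5.46-fold (4.11 to 7.13) higher. Kit, the stem cell factor receptor, stood at 164 CPM against 30.7 CPM.

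Genes that set subsets apart gave mixed values. At least 2 genes of the type 2 conventional list were found in 37.6% of the 141 cells, against 15.2% of the other aged spleen cells, and at least 2 of the type 1 list in 43.3%, against 33.9%. Sirpa, of the type 2 list, was found in 67 of the 141 cells. Xcr1 and Clec9a of type 1 conventional dendritic cells were found in 2 and 3 of the 141 aged spleen cells. Of other type 2 genes, Cd209a was found in 8, Esam and Clec4a4 in 7 each, Clec10a in 4 and Mgl2 in 2. Wdfy4, which type 1 cells need to present antigen taken up from other cells, stood at 282 CPM (246 to 322) against 59.3 CPM in the others and was found in 95 of the 141. Irf8, the factor of type 1 and plasmacytoid cells, was 0.534-fold of the level in the others (0.446 to 0.635), and the interval of Irf4 spanned 1, at 0.981-fold (0.806 to 1.18). Siglech of plasmacytoid cells was found in 3 of the 141 cells. Of the list of mature dendritic cells 3 of 4 tested genes were at least 2-fold higher and none lower, with a median log2 ratio of 1.49. Over all genes tested 11.5% were higher and 14.9% lower. Without the S100a8-high, B-rich and NK-rich cells named below, 3 of the 4 were higher and 1 lower. At least 2 genes of the mature list were found in 84.4% of the 141 cells, against 54.0% of the other aged spleen cells. Its members Cd83, Cd86 and Cd80 are given below with the costimulatory genes. Among its other genes, Ccr7 was 0.776-fold of the others, Ccl17 and Ccl22 had no UMI (a count of 0 allows up to 3), and Fscn1 was found in 7 cells. In the young spleen 2 of the 6 cells (33.3%) held at least 2 genes of the shared list, against 26.9% of the other young spleen cells, and 5 of the 6 (83.3%) held at least 2 genes of the mature list, against 39.4%. As a group, the 141 aged spleen cells are therefore called dendritic cell-like, by the shared list. No subset name is given, and the name is not extended to the 6 young ones. The name does not hold for each of the 141 cells. Of them 4 were rich in S100a8 and S100a9, 26 in B cell genes and 3 in NK cell genes, as given below. The dendritic gate defined below was met by 46 of the 141 (32.6%).

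Marker lists of other types were counted the same way, as the share of cells with at least 2 genes. T cell genes other than Cd3 were at 9.93% in the 141 cells against 49.7% in the other aged spleen cells, as the rule would give, and NK cell genes at 3.55% against 25.01%. The B cell list stood at 31.9% against 44.3%, monocyte and macrophage genes at 19.1% against 10.2%, neutrophil genes at 10.6% against 11.1% and basophil genes at 1.42% against 0.654%. In summed level the neutrophil list stood at 49125 CPM against 3496 CPM, of which 4 cells held most, as given next.

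**Figure D3:**
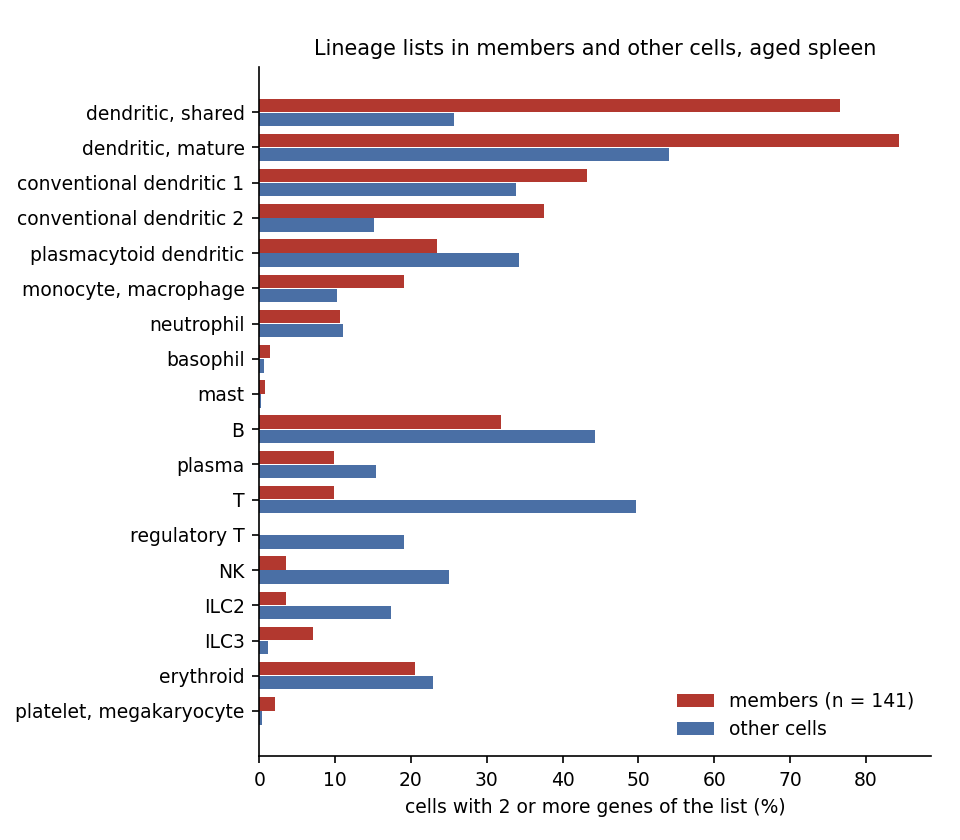
Share of cells (%, x axis) with at least 2 genes of each lineage list (y axis) among the 141 aged spleen cells that met the rule (red) and the other aged spleen cells (blue). The shared dendritic list stands at 76.6% against 25.6%, while T, NK and plasmacytoid lists are lower in the red bars.

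The 141 aged spleen cells were not of 1 kind. In 4 of them S100a8 and S100a9, calcium-binding proteins of neutrophils, summed to 100 UMIs or more, and these 4 held S100a8 at 156241 CPM, Camp at 34948 CPM and Tbc1d4 at 234 CPM. A further 26 held 3 or more B cell genes, with Cd79a at 1281 CPM and Tbc1d4 at 2639 CPM, while the 1951 B-gated cells outside the rule had Tbc1d4 at 20.2 CPM. Another 3 held 3 or more NK cell genes, with Gzma at 1373 CPM and Tbc1d4 at 1970 CPM. The remaining 108 cells (76.6%), another set than the 108 counted above, had Tbc1d4 at 5024 CPM, S100a8 at 110 CPM and Cd79a at 37.3 CPM. Of these 108, 76 held at least 2 genes of the shared dendritic list, 26 held 1 and 6 held none. Barcodes of at most 100 UMIs, which hold free RNA, had Tbc1d4 at 259 CPM and Il1r2 at 69.2 CPM in the aged spleen. Scrublet, a doublet caller, marked 2 of the 141 cells and 3.05% of all aged spleen cells. The split was made after the values were seen, and dendritic genes were higher in the 108 cells than in all 141: Flt3 stood at 178 CPM, Itgax at 314 CPM, Ffar2 at 171 CPM and Sirpa at 191 CPM.

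Against the other aged spleen cells, 1284 genes had a mean of both groups of at least 100 CPM, and 148 of them (11.5%) were at least 2-fold higher in the 141 cells while 191 (14.9%) were at most 0.5-fold, 26.4% either way. The median log2 ratio of all these genes was -0.22. With median-of-ratios scaling, which moves that median to 0, the counts were 181 higher and 104 lower. Without barcodes of another library they were 396 higher and 81 lower, from 4 cells that met the rule. In the 108 remaining cells 200 of 1275 genes (15.7%) were higher and 282 (22.1%) lower, 37.8% either way. Genes that only pass the mean through the group where they are high had to differ, so counts are read against these shares and no more is drawn from them.

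Ptgs2 led the genes that the rule did not use, with 485 UMIs in the 141 cells at 628 CPM (573 to 686), against 17.4 CPM (15.9 to 18.9) in the other aged spleen cells. Its ratio was 36.2 (31.9 to 41.0), and it was 44.8 in the 108 remaining cells. Il1b, the inflammatory cytokine that Il1r2 binds, stood at 540 CPM (489 to 594) against 19.2 CPM, a ratio of 28.1 (24.7 to 31.9), and was found in 77 of the 141 cells. Among cells at barcodes of no other library, where 4 met the rule, the ratio was 23.7 for Ptgs2 and 1.89 for Il1b. Nlrp3, the sensor of the inflammasome that matures interleukin 1β, was 22.2-fold higher (17.3 to 28.4) and was found in 56 cells. Alox5ap, the helper protein of leukotriene synthesis, was 5.44-fold higher (4.51 to 6.52). Tnf was 5.30-fold higher (4.13 to 6.73). Il1r1 and Il1rap, the chains of the signalling interleukin 1 receptor, were rarely seen: Il1r1 was found in 2 of the 141 cells and Il1rap in 3.

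Several genes of cell shape, transport and signalling followed. Adam23, a membrane protein of the ADAM family, stood at 212 CPM against 5.94 CPM, a ratio of 35.7 (28.7 to 44.4). Nav1, which binds growing microtubule ends in neurons, stood at 292 CPM against 9.58 CPM, a ratio of 30.5 (25.5 to 36.4), and was found in 66.0% of the 141 cells. Cyp4f16, a cytochrome P450, had a ratio of 22.2 (18.5 to 26.4), and Grk3, a kinase that turns off G protein-coupled receptors, of 16.9. Among cells at barcodes of no other library these ratios were lower, at 13.7 for Adam23, 22.7 for Nav1, 3.96 for Cyp4f16 and 3.11 for Grk3. Slc15a3, a peptide and histidine transporter of endolysosomes, had a ratio of 12.9 (10.7 to 15.6). Pirb, an inhibitory receptor for MHC class I, was found in 55.3% of the 141 cells and 12.3-fold higher in the 108 remaining ones. Rogdi had a ratio of 10.7. Among cells at barcodes of no other library Pirb was 2.21-fold and Rogdi 3.68-fold higher. In the 108 remaining cells the leading genes by the same rule also held Tbc1d9 at 28.0-fold, Sowahc at 23.1-fold, the cyclin Ccnd1 at 18.6-fold, Plbd1 at 14.8-fold and Grasp at 13.2-fold.

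Neutrophil genes stood among the leading genes of the 141 cells and did so through the 4 cells named above. Camp had a ratio of 16.7 and Ngp of 16.5, S100a9 of 14.4 and S100a8 of 13.4, with Camp found in 7.09% of the cells. In the 108 remaining cells the same genes were below the level of the other aged spleen cells, with Camp at 0.0542-fold, Ngp at 0.0279-fold, S100a9 at 0.0947-fold and S100a8 at 0.0805-fold. Ltf, Lcn2, Chil3, Wfdc21, Ifitm6 and Hp were the other genes of this kind, with ratios of 14.4, 11.5, 11.5, 13.6, 14.6 and 9.71 in all 141 cells. Ifitm6 differed from the others of this kind in the 108 remaining cells, where it was 2.46-fold higher.

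Genes of antigen presentation were high as a group. Of the 11 genes of the MHC class II list, all tested, 8 were at least 2-fold higher and none lower. Over all genes tested 11.5% were higher and 14.9% lower. The median log2 ratio of the list was 1.18, against -0.22 over all genes tested. H2-Ab1, a class II chain, stood at 4126 CPM in the 141 cells against 1111 CPM in the other aged spleen cells, 3.72-fold (3.58 to 3.85). Cd74, the invariant chain, stood at 7386 CPM against 3206 CPM. Ciita, the master regulator of class II genes, stood at 370 CPM against 85.1 CPM, 4.35-fold (3.83 to 4.91). The genes that did not pass 2-fold were H2-DMa at 1.20-fold, H2-DMb2 at 1.67-fold and H2-Ob at 1.18-fold. Since B cells also express class II genes, the level was set against the B-gated cells too, where H2-Ab1 stood at 2708 CPM and Ciita at 211 CPM.

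Costimulatory genes went with them. Cd86, a ligand of CD28, stood at 184 CPM against 54.2 CPM, and Cd83, which keeps class II on the surface, at 669 CPM against 256 CPM. Cd80, the other ligand of CD28, stood at 60.8 CPM (44.7 to 80.9) against 2.59 CPM and was found in 32 of the 141 cells. Tnfsf9, the 4-1BB ligand, stood at 71.2 CPM against 5.61 CPM. The interval of Cd40 spanned 1, at 1.49-fold (0.915 to 2.30).

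Of 11 tested genes of the NF-kB list 7 were at least 2-fold higher and none lower, with a median log2 ratio of 1.28. Over all genes tested 11.5% were higher and 14.9% lower. The subunits Rel and Relb stood at 974 and 193 CPM in the 141 cells against 402 and 63.5 CPM in the others. Among inhibitors, Nfkbia was 2.31-fold higher, Nfkbie 3.61-fold and Nfkbiz 2.46-fold. Tnfaip2, a gene induced by TNF, was 7.21-fold higher (6.12 to 8.46) and Traf1, an adaptor of TNF receptors, 3.32-fold. The inhibitor Tnfaip3 was at 0.926-fold (0.849 to 1.01) and the subunit Nfkb1 at 1.17-fold.

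Immediate early genes are those that cells switch on within minutes of a stimulus or of tissue dissociation. Of 22 tested members 9 were at least 2-fold higher and none lower, with a median log2 ratio of 0.67. Over all genes tested 11.5% were higher and 14.9% lower. Atf3 stood at 1109 CPM (1036 to 1186) in the 141 cells against 111 CPM in the others, 10.0-fold (9.26 to 10.8). Over all alternatives its ratio ran from 3.44 to 13.7. Jun was 3.69-fold higher, Egr1 4.32-fold, Nr4a1 2.92-fold and Fos 2.63-fold. Junb, at 0.776-fold (0.737 to 0.817), did not pass 2-fold. Heat shock genes, another sign of handling, had 7 tested members of which none was 2-fold higher and 2 were lower, namely Hspd1 at 0.407-fold and Hspe1 at 0.419-fold.

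**Figure D4:**
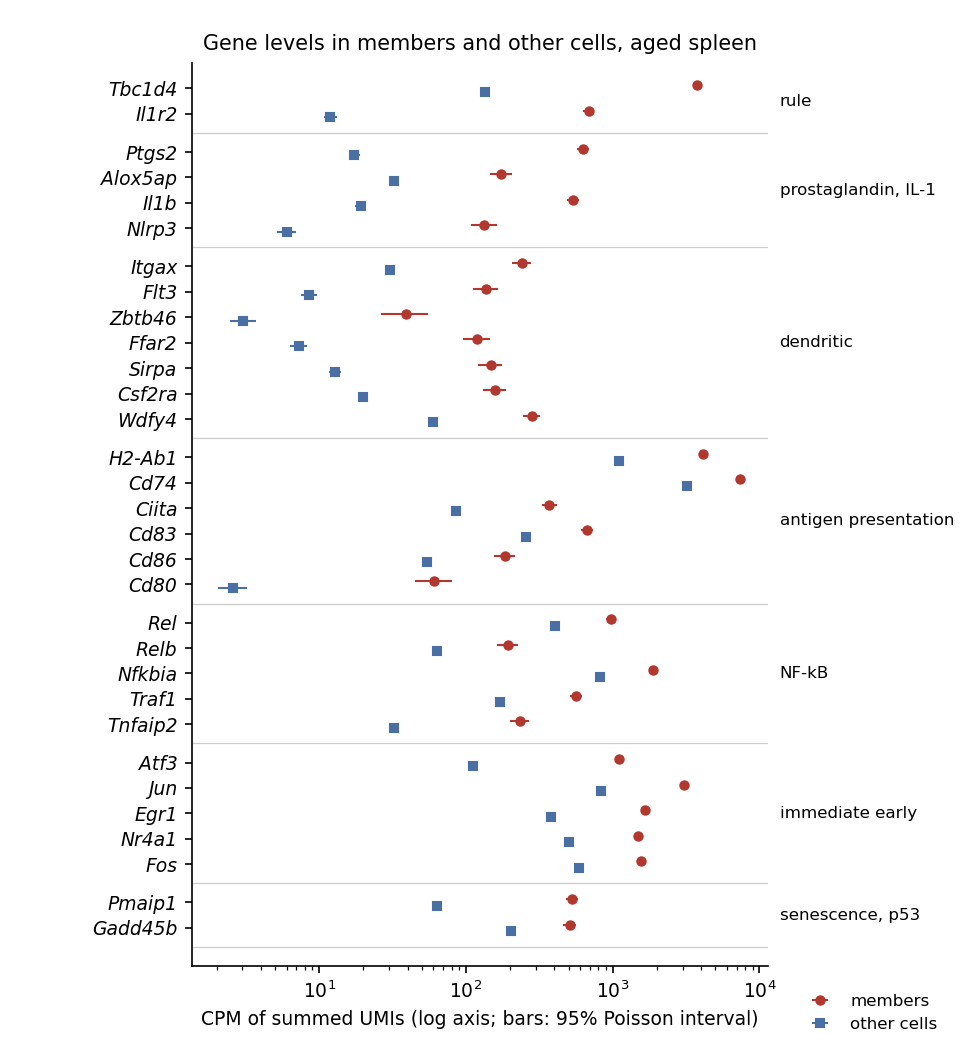
Level (CPM of summed UMIs, log x axis, bars are 95% Poisson intervals) of genes by role (y axis) in the 141 aged spleen cells that met the rule (red circles) and the other aged spleen cells (blue squares). All genes drawn are higher in the red circles, by 2.30-fold for Cd74 up to 36.2-fold for Ptgs2 among genes the rule did not use. The genes drawn were picked from the lists and are not all of their members. Irf8, Irf4, Ccr7, Tnfaip3 and Junb, given in the text, are not drawn and were not higher.

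In the aged spleen, partners of Tbc1d4 did not share its pattern. None of the 6 tested genes of the list of AS160 partners and glucose transport passed 2-fold in either direction, with a median log2 ratio of -0.33. Irs2, an adaptor of the insulin receptor, was at 0.823-fold (0.716 to 0.942). Tbc1d1, the nearest relative of Tbc1d4, stood at 68.6 CPM in the 141 cells against 78.3 CPM, and Rab10, a substrate of AS160 in fat cells, at 62.1 CPM against 99.7 CPM. Of the glucose transporters, Slc2a1 stood at 11.6 CPM against 32.4 CPM, and Slc2a4, the muscle and fat transporter, had no UMI (a count of 0 allows up to 3). Tbc1d1, Rab10, Slc2a1 and Slc2a4 lay below the mean of 100 CPM and are not among the 6 tested. In the young spleen 5 of 10 tested genes of the list were at least 2-fold higher and 1 lower. There 37.3% of all genes tested were higher and 14% lower, from 6 cells that met the rule.

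Genes of other groups gave mixed counts. Pmaip1, the p53 target NOXA, was 8.30-fold higher (7.44 to 9.23) and Gadd45b 2.53-fold, and these were the tested members of the senescence and p53 list. Cdkn2a had no UMI, and Cdkn1a stood at 1.08-fold. Of 5 tested chemokines 4 were lower, as were 14.9% of all genes tested. Ccl5 stood at 365 CPM in the 141 cells against 2588 CPM, Ccl4 at 0.409-fold, Ccl3 at 0.474-fold and Xcl1 at 0.162-fold. Cxcl2 was 3.21-fold higher and came from 17 cells. The lowest genes by the naming rule were Trac at 0.0188-fold, Trbc2 at 0.0440-fold, Il7r at 0.0454-fold, Cd28 at 0.0669-fold, Txk at 0.106-fold, Ms4a4b at 0.110-fold, Gimap4 at 0.116-fold and Ccl5 at 0.141-fold, genes of T and NK cells, of which the rule had removed the Cd3-positive ones.

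In the young spleen the 6 cells were shallow, with 569, 1258, 1282, 1298, 2384 and 8780 UMIs. In that order they held 8, 2, 17, 11, 8 and 60 UMIs of Tbc1d4 and 1, 1, 1, 1, 3 and 2 UMIs of Il1r2. Atf3 had 0, 1, 2, 0, 6 and 12 UMIs in them, and Ptgs2 had 16 UMIs, all in the deepest cell. H2-Aa, a class II chain, was found in all 6, with 4, 7, 8, 2, 10 and 65 UMIs in that order, while Flt3 and Itgax had no UMI in any of them. With 15571 UMIs in all, 1 UMI is 64.2 CPM, so a gene at the aged level of Flt3 would have given few UMIs.

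Against the other young spleen cells 656 of 1761 genes (37.3%) were at least 2-fold higher in the 6 cells and 246 (14%) lower, 51.2% either way. With median-of-ratios scaling the counts were 430 higher and 425 lower. The genes named by rule in the young spleen included Adam23 with 12 UMIs at 192-fold, Cyp4f16 with 12 UMIs at 83.3-fold, Grk3 at 74.5-fold, Nav1 with 8 UMIs at 78.6-fold and Pmaip1 at 35.6-fold. The rule named each of these in the aged spleen too, Pmaip1 in the 108 remaining cells. Others were Ctnnd2, Adgrl3 and Pid1 with 8 UMIs each, and Mmp12 with 6 UMIs.

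Set side by side, Tbc1d4 stood at 3736 CPM (3601 to 3874) in the 141 aged spleen cells and 6808 CPM (5573 to 8234) in the 6 young ones, and Il1r2 at 690 CPM (632 to 751) and 578 CPM (264 to 1097). Both values were used by the rule. Ptgs2 stood at 628 CPM in aged and 1028 CPM in young cells, with a ratio of 0.611 (0.372 to 1.08), and Atf3 at 1109 and 1349 CPM, with a ratio of 0.822 (0.534 to 1.34). Neither ratio's interval excludes 1. All 16 young Ptgs2 UMIs came from the deepest cell, so the young level is that of 1 cell. Ptgs2 was found in 62.4% of the aged cells and in 1 of the 6 young ones, which were shallower. Il1b stood at 540 CPM in aged and 64.2 CPM in young cells, from 417 UMIs and 1 UMI.

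Of 1618 genes 113 (6.98%) were at least 2-fold higher in the aged than in the young cells that met the rule and 701 (43.3%) lower, 50.3% either way, around a median log2 ratio of -0.78. With median-of-ratios scaling, the counts were 269 higher and 334 lower. The 10 leading higher genes were S100a9, S100a8, Camp, Ngp, Lcn2, Chil3, Ltf, Lyz2, Wfdc21 and Ifitm6. These are the genes of the 4 aged cells with high S100a8 and S100a9. S100a8 stood at 18216 CPM in aged and 64.2 CPM in young cells, and without those 4 cells the Ngp ratio was 0.0798. The 10 leading lower genes, Tmco3, Rnf122, Rbm4b, Pid1, Rab37, Zfp950, Ppp1r14b, Oas2, Scarb1 and Napg, rested on 4 to 8 young UMIs each, as for Pid1 with 27 aged and 8 young UMIs.

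A gate that uses neither rule gene was set to compare the aged and young spleen, but it is not independent of the cells that met the rule. Dendritic-gated cells held at least 2 of Zbtb46, Flt3, Itgax, Kmo and Ffar2, no Cd3, fewer than 2 B and fewer than 2 NK cell genes, and fewer than 100 S100a8 and S100a9 UMIs. The gate was chosen after the data were seen. It held 94 aged spleen cells (1.66% of cells) and 31 young spleen cells (0.449%), a ratio of shares of 3.71 (2.45 to 5.76). Of the 94 aged cells 46 met the rule (48.9%, 38.5% to 59.5%), and of the 31 young cells 1 did (3.23%, 0.0816% to 16.7%). Of the gate genes, the ratios' intervals spanned 1 for Flt3 and Itgax, with Flt3 at 275 CPM in aged and 248 CPM in young gated cells and Itgax at 336 and 263 CPM.

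In these gated cells Tbc1d4 stood at 3595 CPM (3424 to 3772) in the aged spleen and 1029 CPM (866 to 1213) in the young spleen, 3.50-fold (2.94 to 4.18). Il1r2 stood at 385 CPM (331 to 446) in aged and 29.2 CPM (7.95 to 74.7) in young gated cells, 13.2-fold (5.07 to 49.0), from 178 and 4 UMIs. Ptgs2 stood at 637 and 146 CPM, 4.36-fold (2.77 to 7.25), and Atf3 at 1189 and 569 CPM, 2.09-fold (1.65 to 2.68). Thinned to 1000 UMIs per cell, which left out 1 aged and 5 young cells, Tbc1d4 was found in 76.3% of 93 aged and 42.3% of 26 young gated cells (80.6% and 57.7% before thinning). Il1r2 was found in 28.0% and 3.85% (54.8% and 7.69% before thinning), where B-gated cells thinned alike held it in 0.884% and 0.0469%. The same thinned B-gated cells held Tbc1d4 in 1.46% of aged and 0.376% of young cells, so both genes were also more often seen in aged B-gated cells.

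Nearly all aged gated cells had shared barcodes. Without barcodes that hold 500 UMIs in another library, 7 aged gated cells were left, with 1 Tbc1d4 UMI in all against 141 UMIs in the 31 young cells, a ratio of 0.106 (0.00266 to 0.600). In the same cells the ratio was 1.49 (0.169 to 6.15) for Ptgs2 and 1.53 (0.639 to 3.17) for Atf3, both with intervals that span 1. For Il1r2 no ratio without shared barcodes is given, because ratios with a count of 0 were left out of the alternatives. Its aged over young ratio above therefore stands without that check. Over all alternatives the ratio ran from 1.49 to 7.46 for Ptgs2 and from 1.53 to 2.33 for Atf3. At a mitochondrial limit of 5% the Tbc1d4 ratio was 1.97, and with 3 of the 5 gate genes it was 1.95. The gates also differed in make-up: Siglech, of plasmacytoid dendritic cells, stood at 41.1 CPM in aged and 430 CPM in young gated cells, and Lyz2, of monocytes and macrophages, at 587 and 1867 CPM. Siglech was found in only 1.06% of the aged and 6.45% of the young gated cells, which is 1 and 2 cells, and without them the Tbc1d4 ratio was 3.08. The part of Lyz2-high cells in the differences was not tested, and with 1 library per age, age cannot be told apart from library.

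Among 1390 genes tested in the gated cells 122 (8.78%) were at least 2-fold higher in the aged spleen and 123 (8.85%) lower, 17.6% either way, around a median log2 ratio of -0.20. Immediate early genes had 14 of 21 tested members higher and none lower, with a median log2 ratio of 1.31. Nr4a3, an orphan nuclear receptor of this list, stood at 370 CPM in aged and 21.9 CPM in young gated cells, from 171 and 3 UMIs. It was also 3.38-fold higher in all aged over all young spleen cells outside the rule. Nr4a1 was 4.31-fold higher (3.17 to 5.99), against 1.71-fold outside the rule, and Egr1 3.90-fold (3.08 to 4.99), against 1.07-fold. Tnfaip3 was 4.45-fold higher, against 1.92-fold outside the rule, and the clock gene Per1 8.67-fold, against 2.12-fold. These gene ratios were not computed without shared barcodes. Of the MHC class II list 1 of 11 was higher and none lower, with H2-Ab1 at 5091 CPM in aged and 5580 CPM in young gated cells. Chemokines had 4 of 6 tested members lower, with Ccl5 at 264 CPM in aged and 1087 CPM in young gated cells.

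Across gates the markers differed in where else they were found. The dendritic gate kept cells that met the rule, while the B, NK, monocyte and S100a8-high gates left them out. Cd3-positive cells cannot meet the rule. The order of Tbc1d4 and Il1r2 between the dendritic gate and the others is therefore set in part by the rule. Tbc1d4 stood at 305 CPM in aged and 390 CPM in young monocyte-gated cells, and at 179 and 53.6 CPM in Cd3-positive cells. In neutrophil-like cells with 100 or more S100a8 and S100a9 UMIs it stood at 17.4 and 1.88 CPM. Il1r2 had another order: outside dendritic-gated cells, its highest level among the cell gates drawn was in those S100a8-high cells, at 189 CPM in aged and 187 CPM in young spleen, a ratio of 1.01 (0.740 to 1.38). Ptgs2 in the same S100a8-high cells stood at 91.8 CPM in aged and 366 CPM in young spleen. Atf3 stood at 729 and 642 CPM in monocyte-gated cells and 189 and 98.5 CPM in NK-gated cells.

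**Figure D5:**
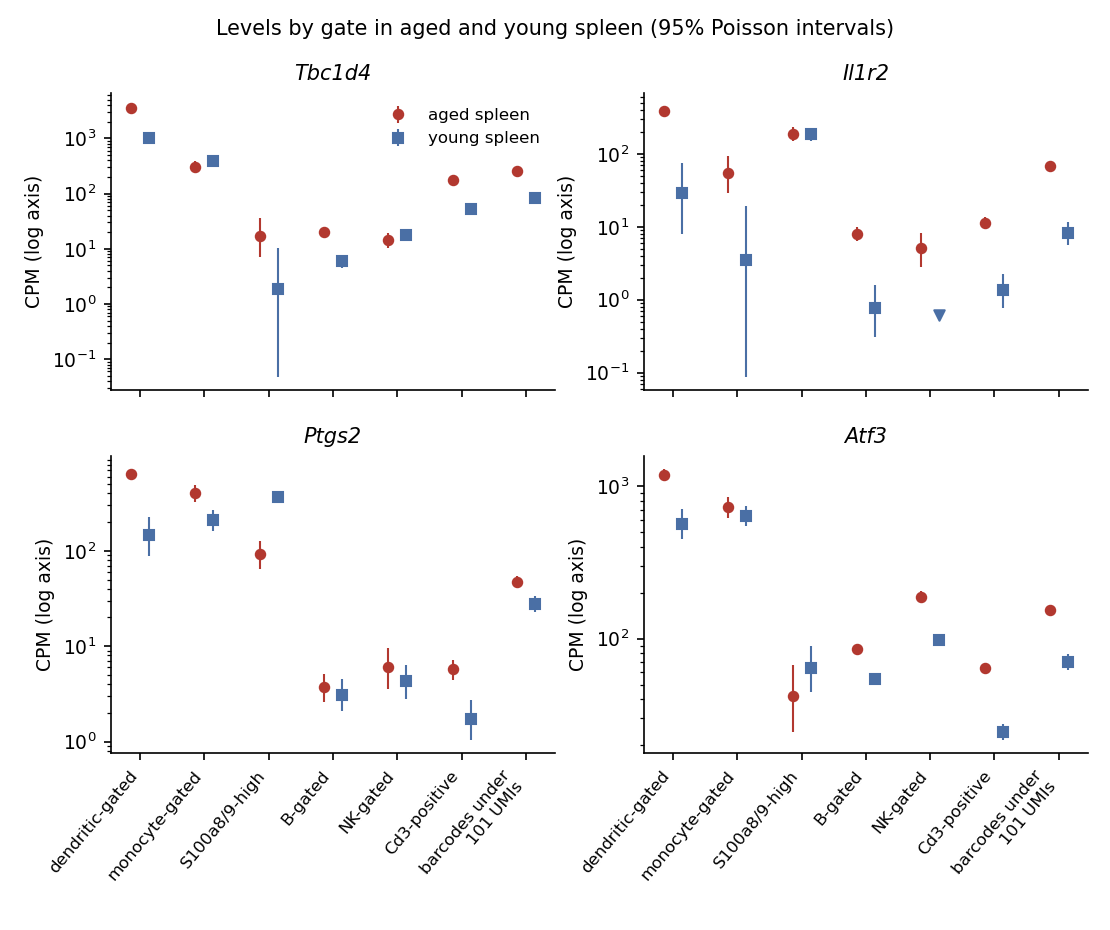
Level (CPM, log y axis, bars are 95% Poisson intervals, a triangle marks the upper bound of a count of 0) of Tbc1d4, Il1r2, Ptgs2 and Atf3 by gate (x axis) in aged spleen (red circles) and young spleen (blue squares). Dendritic-gated cells have the highest Tbc1d4, at 3595 CPM in aged and 1029 CPM in young spleen, and aged Il1r2 at 385 CPM lies above all other gates. Only the dendritic gate holds cells that met the rule, 46 of its 94 aged and 1 of its 31 young cells. This order is therefore set in part by the rule.

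In the authors' deposited tables, which list per cluster of a library the genes above the other cells, the 4 markers stood together in 2 of the aged spleen clusters. In the authors' deposited table cluster 5 of the aged spleen listed Tbc1d4 in 87.2% of its cells and 16.6% of the other cells, and Il1r2 in 62.2% and 3.9%. The same table's cluster 11, led by S100a9 and S100a8, also listed Tbc1d4, in 56.8% and 20.9%. In the authors' deposited table for the young spleen, cluster 6 listed Tbc1d4 in 34.2% of its cells and 6% of the others without Il1r2, and cluster 14, led by S100a9, listed Il1r2 in 32.7% and 0.3% without Tbc1d4.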

How the data were processed

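The members, gene lists and gates were chosen with earlier results of these data known. The count matrices were deposited unfiltered, with UMIs as whole numbers. Per the file headers, software version 3.1.0 wrote them, whereas Cell Ranger 1.3.1 and the human build GRCh38 stand in the submitters' processing notes. The matrices hold mouse Ensembl identifiers, of which 30934 of 31053 were found in GENCODE M21, so aligner and annotation are not settled. The authors' deposited cluster tables give log ratios, taken here as natural log though the base is not stated, and the fraction of cells with the gene. Their deposited p-values were not used.

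Barcodes with at least 500 UMIs, 250 genes and at most 10% mitochondrial UMIs were kept. UMIs were summed per group and given as CPM with exact 95% intervals (Poisson for CPM, conditional binomial for ratios, Clopper-Pearson for shares), which cover counting error only. With 1 library per group there is no replicate and no test. Genes with a mean of both groups of at least 100 CPM were compared, and at least 2-fold or at most 0.5-fold was counted. A count of 0 allows up to 3 UMIs. Doublets were left in, and Scrublet (scanpy 1.11.5) was run per library as an alternative.

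Named genes were, against the other cells of a library, the 20 with the highest lower bound and the 8 with the lowest upper bound of the ratio, and, between ages, 10 each way. Genes of the rule, immunoglobulin, T cell receptor variable and joining, haemoglobin, ribosomal protein, mitochondrial and sex-linked genes and unnamed models were set aside. Up to 4 genes of each list, by UMIs, were added. Other genes, chiefly list members, receptors and subset genes, were named after their values were seen, as was the dendritic gate. Python 3.11.15, numpy 2.4.6, scipy 1.17.1, pandas 2.3.3 and matplotlib 3.10.9 were used, and the steps were tested on simulated data. Alternatives were the mitochondrial limit, the UMI minimum, the UMIs of each rule gene, doublets, shared barcodes, thinning to 1000 UMIs, scaling, the CPM minimum, the fold and subsets of members.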

Additional observations from a re-analysis of the deposited data

Results flagged for a closer look

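In the young brain library, which no comparison used, 267 of 8994 cells (2.97%) met the same gene rule, against 2 of 13662 cells in the aged brain library. Of the 267 barcodes, 265 were also barcodes of at least 500 UMIs in the aged spleen library, and all 265 held more UMIs there, at a median of 3233, against 1004 UMIs in the young brain library. In the aged spleen library 166 of them exceeded 10% mitochondrial UMIs, and 90 were among the 141 aged spleen cells described. The young brain library had 2 such cells at barcodes of its own.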

How the results depend on the processing

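No paired analysis was possible because each group was 1 library and no result comes from a test. The cause of each change below was not tested, except where the setting itself removes cells or genes. The aged spleen share of cells that met the rule was 1.15% and 5.30% at mitochondrial limits of 5% and 20%, 1.70% with 2 UMIs of each gene, 1.53% with every cell thinned and 0.551% without barcodes of another library. The young spleen share was 0.0229% at the 5% limit and 0.0290% with 2 UMIs. The ratio of the aged to the young share was 6.29 without barcodes of another library. Counts of higher and lower genes in aged spleen cells against the others were 396 and 81 without such barcodes, 548 and 798 at a mean of 20 CPM, 2321 and 2251 with no minimum, 82 and 48 at 3-fold, and 227 and 325 in the 76 cells without 2 B, NK, T or erythroid genes. The lower count was 299 at the 20% limit, 307 thinned and 104 with median-of-ratios scaling. In young spleen cells the counts were 328 and 12 at the 5% limit, 1580 and 124 thinned, and 430 and 425 with median-of-ratios scaling. The higher count was 2143 at 20 CPM and with no minimum. The lower count was 154 with 2 UMIs, 105 at 3-fold and 157 without the deepest of the 6 cells. Between aged and young cells that met the rule they were 8 and 333 at the 5% limit, 308 and 199 without shared barcodes, 48 and 1636 thinned, 269 and 334 with median-of-ratios scaling and 48 and 431 at 3-fold. The lower count was 2395 at 20 CPM and with no minimum.

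Neutrophil genes changed side. With 2 UMIs of each rule gene the ratios against the others were 0.904 for Camp, 0.613 for Ngp, 0.606 for Ltf, 0.973 for Lcn2, 0.200 for Chil3 and 0.856 for Hp. Without the S100a8-high, B-rich and NK-rich cells they were 0.0542 for Camp, 0.0279 for Ngp, 0.0947 for S100a9, 0.0805 for S100a8, 0.204 for Wfdc21, 0.175 for Lcn2 and 0.0565 for Chil3. Without shared barcodes S100a8 was at 0.0833. Aged over young, Ngp was at 0.0798 without the S100a8-high cells and at 0.0513 without all 3 kinds, and Lyz2 at 0.849 at the 20% limit. For the dendritic gate, the ratio of shares was 6.57 with 3 gate genes, 7.31 at the 20% limit and 2.13 without shared barcodes, and the Tbc1d4 ratio was 1.95, 1.97 at the 5% limit, 5.31 thinned and 0.106 without shared barcodes. Against the other aged spleen cells, the ratio over all alternatives ranged from 16.6 to 50.4 for Ptgs2, from 3.44 to 13.7 for Atf3, from 1.89 to 37.9 for Il1b, from 3.96 to 34.7 for Cyp4f16, from 3.11 to 26.4 for Grk3, from 2.21 to 15.02 for Pirb and from 3.68 to 13.3 for Rogdi. The young values rest on 6 cells with 15571 UMIs, where 1 UMI is 64.2 CPM.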
